A study of Mus musculus with 12 samples.

Results

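Fatty acid oxidation and the genes controlled by PPAR-alpha were followed in renal cortex of 12-week-old C57BL/6 mice. The set is a fixed list of 40 genes of mitochondrial and peroxisomal beta-oxidation and its control. They were chosen by name, with earlier results of these data known. All 40 are among the 46095 gene symbols counted, and 38 passed the filter on low counts; Cpt1b and Angptl4 did not. There were 3 groups of 4 libraries: butyrate-treated mice with diabetic nephropathy, the kidney damage of diabetes (DN+NaB; NaB is sodium butyrate), untreated mice with that disease (DN), and normal control mice (NC). Butyrate, a short fatty acid that gut microbes produce, blocks histone deacetylases. How diabetes was brought about, and how much butyrate was given, by which route and for how long, are not in the labels, so the groups are described only by these names. The series design speaks of 4 animals in each group without matching them to libraries, and p-values measure the spread between these libraries, which may be technical.

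As background, the proximal tubule meets most of its energy need by oxidising fatty acids. Long-chain acyl groups are activated to acyl-CoA, pass into mitochondria through the carnitine shuttle and are shortened there by repeated dehydrogenation, hydration, dehydrogenation and thiolysis. Peroxisomes shorten very-long-chain, branched and dicarboxylic acyl groups with enzymes of their own. PPAR-alpha, a nuclear receptor that binds fatty acids, pairs with a retinoid X receptor on DNA and raises transcription of many of these genes, among them Ehhadh, Acot1, Pex11a and Pdk4.

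The libraries held 58394975 to 70674015 counts, with a median of 63588713. One protocol label of the samples names prefrontal cortex in place of renal cortex, so tissue genes were looked at: the neuronal gene Snap25 was at 0 counts throughout (the limit of a 0 is 3 counts per library), and the kidney gene Lrp2 had 547305 to 852758 counts. Summed levels of several marker lists differed between groups, and no list had a marker at 0 in all libraries of a group. The 12 markers of the convoluted proximal tubule summed to 28567 to 37499.7 CPM (counts scaled to library size with TMM factors) in DN+NaB, 20544 to 33218 in DN and 22680.1 to 27364 in NC. The 10 markers of the straight proximal tubule summed to 3907 to 5103 CPM in DN+NaB, 3856 to 5752 in DN and 5503 to 6191 in NC. Slc27a2, which had the highest counts of these 10 in every library, dominates that sum; of the 10, 1 rose (Slc5a10) and 6 fell in DN against NC, and Slc22a7, the furthest, differed by -6.49 ± 0.45 (SE, adjusted p = 4.62e-06). The 8 thick ascending limb markers summed to 5466 to 6995, 5386 to 7469 and 7798 to 13332 CPM in the same order of groups. The 5 macrophage markers summed to 106 to 126 CPM in DN+NaB, 112 to 158 in DN and 169 to 227 in NC. DN replicate 4 stood apart, with 465 CPM of the 6 tubular injury markers. The other DN libraries had 165 to 210 CPM, DN+NaB libraries 159 to 211 and NC libraries 136 to 164. Lcn2, among these markers, had 14915 counts in DN replicate 4 and 140 to 711 in the other DN libraries. The part of these shifts in the results below was not tested. In bulk tissue, fewer cells of a type and less RNA per cell cannot be told apart.

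The promoters of Crot, Acadm, Eci1, Ehhadh and Hacl1 are shown because these 5 members were called in DN against NC under every processing alternative tried. Each is the 250 bases before the transcription start in RefSeq on GRCm38.p6, printed 5′ to 3′ along the gene's strand. Capitals mark AGGTCA, the hexamer that nuclear receptors of the PPAR class bind as a tandem repeat, on either strand.
Crot, chr5:8997147-8997396, minus strand: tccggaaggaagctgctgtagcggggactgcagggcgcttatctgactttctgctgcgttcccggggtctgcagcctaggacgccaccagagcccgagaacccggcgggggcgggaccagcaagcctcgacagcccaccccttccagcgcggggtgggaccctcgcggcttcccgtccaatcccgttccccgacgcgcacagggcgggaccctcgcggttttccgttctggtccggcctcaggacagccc
Acadm, chr3:153944644-153944893, minus strand: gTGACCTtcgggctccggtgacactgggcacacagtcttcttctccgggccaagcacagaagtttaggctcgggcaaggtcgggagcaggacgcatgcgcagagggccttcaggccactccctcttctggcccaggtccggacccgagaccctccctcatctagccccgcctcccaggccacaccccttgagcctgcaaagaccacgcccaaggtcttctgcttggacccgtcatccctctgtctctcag
Eci1, chr17:24426433-24426682, plus strand: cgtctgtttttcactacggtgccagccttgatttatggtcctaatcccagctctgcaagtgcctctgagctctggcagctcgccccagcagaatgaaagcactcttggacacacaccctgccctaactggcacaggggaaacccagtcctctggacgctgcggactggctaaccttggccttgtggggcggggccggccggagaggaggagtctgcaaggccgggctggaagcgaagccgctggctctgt
Ehhadh, chr16:21787835-21788084, minus strand: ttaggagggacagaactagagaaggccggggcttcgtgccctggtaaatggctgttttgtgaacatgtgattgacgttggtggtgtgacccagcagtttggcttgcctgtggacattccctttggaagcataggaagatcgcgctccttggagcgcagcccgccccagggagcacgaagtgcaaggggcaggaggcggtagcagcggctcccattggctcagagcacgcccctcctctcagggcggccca
Hacl1, chr14:31640966-31641215, minus strand: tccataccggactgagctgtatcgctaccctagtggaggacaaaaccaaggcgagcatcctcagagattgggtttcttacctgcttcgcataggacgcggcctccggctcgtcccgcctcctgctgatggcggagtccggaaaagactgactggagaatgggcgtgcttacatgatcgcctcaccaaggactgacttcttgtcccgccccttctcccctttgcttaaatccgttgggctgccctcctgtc
The Acadm window has 1 hexamer, on the opposite strand, and the other 4 windows have none. The full repeat AGGTCANAGGTCA, searched on both strands, was in 0 of the 36 promoter windows of the 33 members that RefSeq's table matched, and in 0.0335% of all 32851 windows of that length. The single hexamer AGGTCA, which the repeat contains, was in 11.1% of member windows (Acadm, Acadvl, Acot4 and Cpt1a) and in 14% of all windows. No match says only that these letters are not in the window. The 5 windows had 57.6% to 69.6% G and C bases.

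In DN kidneys, carnitine octanoyltransferase (Crot), the medium-chain dehydrogenase (Acadm), and the peroxisomal enzymes Ehhadh, Acox2 and Eci2 were lower than in NC kidneys, while Eci1, Hacl1 and Hadhb were higher. By edgeR's quasi-likelihood test with Benjamini-Hochberg adjustment over all 17530 genes tested, 3 members rose, 5 fell and 30 were not called. The 8 called make 21.1% of tested members, and 8.23% of all tested genes were called in that comparison (3.82% higher and 4.42% lower). The groups did not overlap for 9 members, 4 higher and 5 lower, and for 13.3% of all genes (5.86% higher and 7.49% lower). The median log2 fold change of the members was 0.0071, against 0.013 over all genes, and 19 members lay on each side of 0. Scaled by library size only, without TMM factors, 2 members rose and 6 fell, and over all genes 503 rose and 1103 fell, against 669 and 774 with TMM. Without DN replicate 4, 6 members rose, and 921 genes in all. Without NC replicate 1 or NC replicate 3, 409 and 428 genes rose.

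With sodium butyrate added to the disease, no member passed the test. Of the 38 members, 0 were called in DN+NaB against DN by edgeR, and 4 had an unadjusted p under 0.05 (Acsl1, Hacl1, Acot1 and Acot2). Over all 17530 genes tested, 1726 had an unadjusted p under 0.05. DESeq2 called 2 members (Acsl1 and Hacl1, both higher), and over all genes 84 higher and 173 lower. Only 0.0228% of all genes were called by edgeR in that comparison (0.0114% higher and 0.0114% lower), which is 4 genes. The median log2 fold change of the members was -0.0067, against -0.019 over all genes. Outside Acadvl, Ppard and Pdk4, which spread widely among libraries, the 35 other members differed by -0.33 to 0.69 with standard errors of 0.10 to 0.25. A p that misses the threshold does not show that the groups were alike.

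Against NC, the butyrate-treated diabetic kidneys had 7 members higher, 4 lower and 27 not called. The higher ones were Hacl1, Eci1, Acaa2, Acot2, Acsl1, Acot1 and Hadhb, and the lower ones Crot, Acadm, Ehhadh and Eci2. The 11 make 28.9% of tested members, beside 15.6% of all genes called (6.62% higher and 8.94% lower). The groups did not overlap for 9 members that were higher and 8 that were lower, and for 27.9% of all genes (14% and 13.9%). The median of the members was 0.07, against -0.0093 over all genes. With library size only, which moved the median of all genes to -0.12, 4 members rose and 7 fell, and over all genes 875 rose and 2070 fell, against 1161 and 1568 with TMM. Without NC replicate 1, 4 members rose, and 795 genes in all. Without DN replicate 4, which is not in the comparison but shares its estimate of spread, 7 members fell, and 2146 genes in all. This comparison and that of DN with NC share the NC libraries, so each gene's values in both are given side by side and not counted as 2 results.

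**Figure D1:**
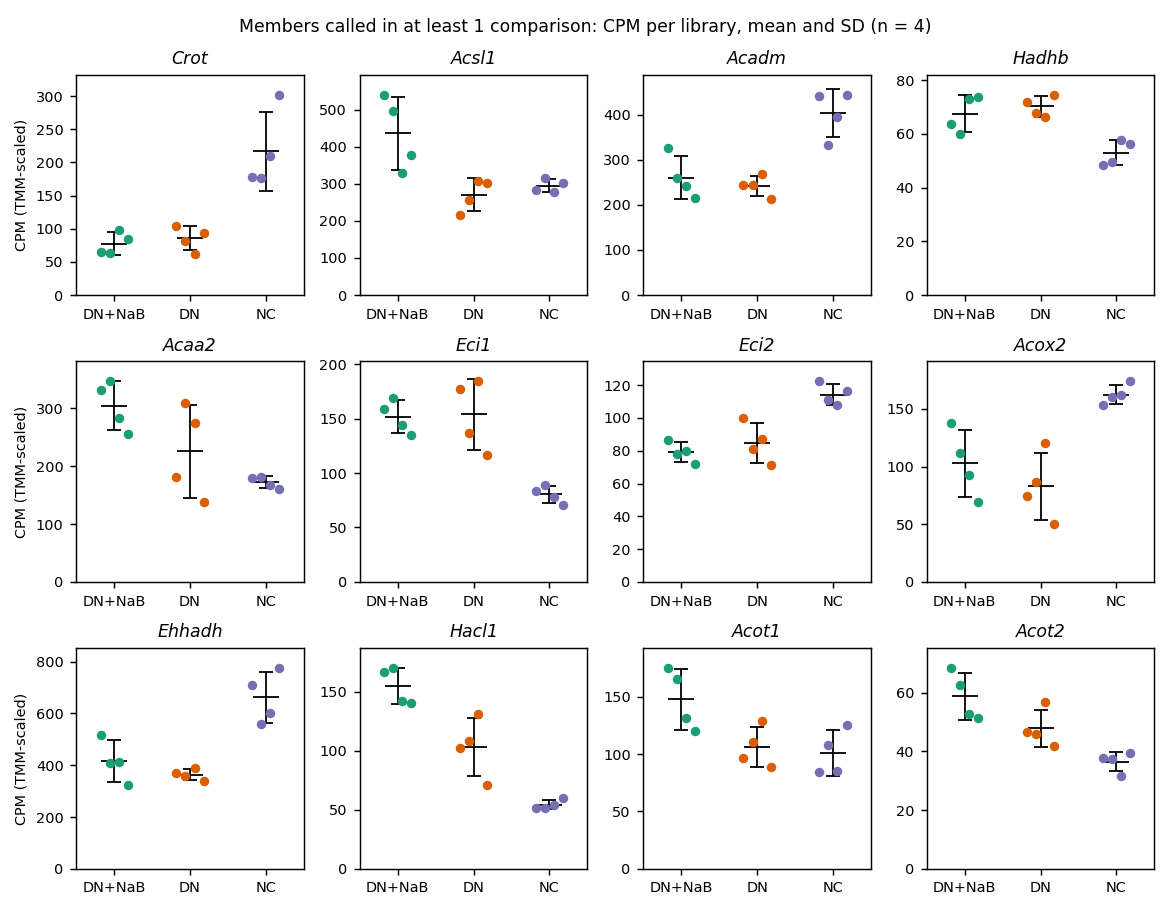
CPM (counts scaled to library size with TMM factors) of the 12 members called in at least 1 comparison, with 1 point per library and, from left to right, the DN+NaB, DN and NC groups. The horizontal bar is the mean and the whisker the SD of 4 libraries; all 4 NC values of Crot, Acadm, Eci2, Acox2 and Ehhadh lie above all values of both diseased groups, and all 4 of Eci1, Hacl1, Hadhb and Acot2 lie below them.

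The receptor and its coactivators were not called in any comparison. Ppara had 289, 247, 187 and 196 CPM in DN+NaB libraries, 292, 336, 242 and 287 in DN libraries and 219.5, 234, 203 and 318 in NC libraries. All 3 groups overlap, and the highest value of NC exceeded 3 of the 4 values of DN. Its log2 fold change was 0.25 ± 0.17 (SE, adjusted p = 0.438) in DN against NC, -0.33 ± 0.17 (SE, adjusted p = 0.556) in DN+NaB against DN and -0.084 ± 0.17 (SE, adjusted p = 0.778) in DN+NaB against NC. Ppargc1a, the coactivator that docks on PPAR-alpha and drives mitochondrial gene transcription, had 104, 93.2, 93.2 and 105 CPM in DN+NaB libraries, 112, 96.2, 90.1 and 114 in DN libraries and 100.2, 100.1, 119 and 106 in NC libraries. These values overlap throughout, and the differences were -0.043 ± 0.11 (SE, adjusted p = 0.866) in DN against NC and -0.064 ± 0.11 (SE, adjusted p = 0.859) in DN+NaB against DN. Ppargc1b, its relative, averaged 70.2 ± 8.30 CPM in DN+NaB, 72.8 ± 16.1 in DN and 65.5 ± 15.6 in NC (mean ± SD, n = 4 each).

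Within the carnitine shuttle, Crot was the 1 gene called, of 5 tested, in DN against NC and in DN+NaB against NC. That is 20% in each, beside 8.23% and 15.6% of all genes. Crot, the peroxisomal carnitine octanoyltransferase that hands chain-shortened acyl groups on to mitochondria, had 64.1, 63.1, 97.9 and 84.7 CPM in DN+NaB libraries, 104, 81.8, 61.8 and 94.0 in DN libraries and 178, 176, 209.5 and 302 in NC libraries. All values of both diseased groups lay below all NC values. It fell by 1.34 ± 0.21 on the log2 scale in DN (SE, adjusted p = 0.00126) and by 1.48 ± 0.21 in DN+NaB (adjusted p = 0.000411), both relative to NC. DN+NaB differed from DN by -0.14 ± 0.21 (SE, adjusted p = 0.838).

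Cpt1a, the outer-membrane palmitoyltransferase that sets the pace of mitochondrial entry, had 784, 795, 753 and 705 CPM in DN+NaB libraries, 792, 876, 875 and 581 in DN libraries and 882, 850.2, 898 and 1032 in NC libraries. DN replicate 4 was the lowest library, all DN+NaB values lay below all NC values, and the DN and NC groups overlap. The difference was -0.23 ± 0.13 (SE, adjusted p = 0.338) in DN against NC and -0.27 ± 0.13 (SE, adjusted p = 0.183) in DN+NaB against NC, and without DN replicate 4 the second was -0.29 (adjusted p = 0.0341). The second also passed with library size only or only the 2 groups compared (adjusted p = 0.0320 and 0.0497). Cpt2, the inner-membrane enzyme, differed by -0.26 ± 0.12 (SE, adjusted p = 0.204) in DN against NC, or by -0.37 (adjusted p = 0.0402) with library size only. Slc25a20, the translocase that carries acylcarnitine across the inner membrane, differed by -0.12 ± 0.12 (SE, adjusted p = 0.629), and Crat, the carnitine acetyltransferase, by -0.17 ± 0.14 (SE, adjusted p = 0.533). Between DN+NaB and DN the 4 mitochondrial shuttle genes ran from -0.062 ± 0.12 (Slc25a20) to 0.18 ± 0.12 (Cpt2), and none was called. Cpt1b, the muscle isoform, had 3, 10, 3 and 7 counts in DN+NaB libraries, 6, 3, 11 and 7 in DN libraries and 4, 6, 5 and 13 in NC libraries, too few to test. Of the 75-base stretches in its GENCODE M21 transcripts, 77.1% also occur in Gm44502, which had 0 counts in every library. The 7 muscle markers summed to 0.762 to 0.905 CPM in DN+NaB, 1.29 to 1.41 in DN and 1.75 to 2.43 in NC.

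Acsl1, the long-chain acyl-CoA synthetase that activates fatty acids, had the smallest p of the members in DN+NaB against DN, where it was not called. It had 540.4, 495, 330.3 and 377 CPM in DN+NaB libraries, 215, 256, 308 and 303 in DN libraries and 284, 316, 278 and 302 in NC libraries. Every DN+NaB value lay above every DN and NC value, and DN+NaB replicates 1 and 2 were highest. The log2 fold change was 0.69 ± 0.16 (SE, adjusted p = 0.130) in DN+NaB against DN, 0.56 ± 0.16 (SE, adjusted p = 0.0269) in DN+NaB against NC and -0.12 ± 0.16 (SE, adjusted p = 0.718) in DN against NC. The call against NC was lost with library size only (0.45, adjusted p = 0.0713) and without NC replicate 1 (0.54, adjusted p = 0.0678), NC replicate 3 (0.53, adjusted p = 0.0659), DN+NaB replicate 1 (0.45, adjusted p = 0.0824) or DN+NaB replicate 2 (0.50, adjusted p = 0.0840). The DN+NaB and DN groups did not overlap for 2 of the 38 members, Acsl1 and Hacl1, both higher, and for 4.56% of all genes (2.13% higher and 2.44% lower).

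Of the 5 acyl-CoA dehydrogenase genes in the set, only the medium-chain gene was called, in DN against NC and in DN+NaB against NC. Over all genes, 8.23% and 15.6% were called in these comparisons. Acadm, the medium-chain acyl-CoA dehydrogenase, had 327, 259, 242 and 216 CPM in DN+NaB libraries, 244, 244, 268 and 213 in DN libraries and 443, 334, 395 and 445 in NC libraries. All 8 values of the diseased groups lay below all 4 of NC. It fell by 0.74 ± 0.14 in DN (SE, adjusted p = 0.00411) and by 0.63 ± 0.14 in DN+NaB (adjusted p = 0.00684), both against NC and on the log2 scale. Acadl, the long-chain dehydrogenase, averaged 143 ± 3.66 CPM in DN+NaB, 158 ± 23.2 in DN and 166 ± 12.0 in NC (mean ± SD, n = 4 each), and was not called. Acad10 and Acad11, relatives of these enzymes, differed by 0.31 ± 0.14 (SE, adjusted p = 0.220) and 0.19 ± 0.12 (SE, adjusted p = 0.413) in DN against NC. Acad10 shares 11.4% of its 75-base stretches with Acad12, a relative. Acad12 averaged 16.1 ± 1.27 CPM in DN+NaB, 16.7 ± 4.61 in DN and 35.0 ± 1.30 in NC, and fell by 1.07 ± 0.17 in DN (adjusted p = 0.00114). The sum of both was 146 ± 18.2, 148 ± 26.5 and 142 ± 12.5 CPM in DN+NaB, DN and NC.

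Acadvl, the very-long-chain acyl-CoA dehydrogenase of the inner membrane, varied widely among libraries of each group and was not called. It had 1188, 753, 162 and 200 counts in DN+NaB libraries, 136, 3015, 191 and 301 in DN libraries and 685, 137, 143 and 103 in NC libraries. DN replicate 2 held more than the other 3 DN libraries together, NC replicate 1 more than the other 3 NC libraries, and DN+NaB replicates 1 and 2 more than replicates 3 and 4. Its log2 fold change was 1.96 ± 1.20 (SE, adjusted p = 0.390) in DN against NC. In GENCODE M21, 19.5% of its 75-base stretches lie antisense to transcripts of Dvl2, which had 37 to 127 counts per library. Whether the counting used strand is not given in the sources used here, so reads of the 2 genes in the overlap cannot be assigned, and the part of this in the low and uneven counts was not tested.

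The trifunctional protein, whose alpha and beta subunits Hadha and Hadhb carry out the last 3 steps of long-chain oxidation, gave small differences. Hadhb had 63.8, 60.0, 72.9 and 73.5 CPM in DN+NaB libraries, 71.8, 67.9, 66.3 and 74.6 in DN libraries and 48.3, 49.7, 57.6 and 56.2 in NC libraries. All values of both diseased groups lay above all NC values. It rose by 0.41 ± 0.10 (SE, adjusted p = 0.0241) in DN and by 0.35 ± 0.10 (SE, adjusted p = 0.0316) in DN+NaB, both against NC on the log2 scale. The DN call was lost without NC replicate 1 (0.36, adjusted p = 0.0992), NC replicate 2 (0.37, adjusted p = 0.0893), DN replicate 1 (0.40, adjusted p = 0.0530) or DN replicate 4 (0.36, adjusted p = 0.0520). It was also lost with library size only, no filter on low counts, or only the 2 groups compared (adjusted p = 0.111, 0.0562 and 0.0544). The DN+NaB call was lost without NC replicates 1 or 2 or DN+NaB replicates 3 or 4, at adjusted p = 0.109, 0.0934, 0.0935 and 0.0989. It was also lost with library size only, no filter on low counts, or a filter of at least 1 CPM in 4 libraries (adjusted p = 0.171, 0.0782 and 0.0544). A processed pseudogene, Gm13910, shares 16.4% of the 75-base stretches of Hadhb and had 1833 to 2405 counts per library, so the split of reads between them is uncertain. The sum of Hadhb and Gm13910 was 101 ± 7.69 CPM in DN+NaB, 105 ± 5.74 in DN and 83.1 ± 6.10 in NC (n = 4 each), with no overlap between either diseased group and NC. Hadha differed by 0.18 ± 0.12 (SE, adjusted p = 0.416) in DN and by 0.30 ± 0.12 (SE, adjusted p = 0.0969) in DN+NaB, both against NC.

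Acaa2, a mitochondrial thiolase, had 331, 346, 284 and 255 CPM in DN+NaB libraries, 181, 310.0, 274 and 137 in DN libraries and 179.7, 181, 168 and 160.3 in NC libraries. All DN+NaB values lay above all NC values, while the DN libraries split, with replicates 2 and 3 high and replicate 4 below every NC library. It rose by 0.82 ± 0.21 (SE, adjusted p = 0.0155) in DN+NaB against NC. In DN against NC it differed by 0.39 ± 0.20 (SE, adjusted p = 0.291), or by 0.55 (adjusted p = 0.0371) without DN replicate 4. Etfa and Etfb, the electron transfer flavoprotein that passes electrons from these dehydrogenases to the respiratory chain, differed by -0.026 ± 0.17 and -0.0024 ± 0.15 in DN against NC, and neither was called in any comparison. Etfb shares 39.6% of its 75-base stretches with Gm45233, so its counts are uncertain.

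The enoyl-CoA isomerases, which move the double bond of unsaturated acyl groups, went in opposite directions in the diseased groups. Eci1, the mitochondrial isomerase, had 159, 169, 144 and 135 CPM in DN+NaB libraries, 178, 137, 184 and 117 in DN libraries and 83.9, 89.0, 78.2 and 70.7 in NC libraries. All NC values lay below all values of both other groups. It rose by 0.94 ± 0.14 (SE, adjusted p = 0.000959) in DN and by 0.91 ± 0.14 (SE, adjusted p = 0.000774) in DN+NaB, both against NC, which is 1.91-fold and 1.88-fold. Eci2, an isomerase of peroxisomes, had 86.6, 78.3, 79.6 and 71.9 CPM in DN+NaB libraries, 100.1, 80.8, 87.5 and 71.3 in DN libraries and 122, 111, 108 and 116 in NC libraries. It fell by 0.43 ± 0.11 in DN (SE, adjusted p = 0.0267) and by 0.53 ± 0.11 in DN+NaB (adjusted p = 0.00503), with no overlap with NC. The DN call was lost without NC replicate 1 (-0.40, adjusted p = 0.0695) or DN replicate 2 (-0.40, adjusted p = 0.0763), and with only the 2 groups compared (-0.42, adjusted p = 0.0731).

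Eci3, the rodent copy of Eci2, had 209, 217, 177 and 132 CPM in DN+NaB libraries, 138, 149, 172 and 74.1 in DN libraries and 202, 199.6, 188 and 167 in NC libraries. DN replicate 4 was the lowest of all libraries, and the DN+NaB values overlap those of NC. It differed by -0.51 ± 0.22 (SE, adjusted p = 0.192) in DN against NC and by -0.045 ± 0.22 (SE, adjusted p = 0.915) in DN+NaB against NC, and it shares 4.79% of its 75-base stretches with Eci2. Decr1, the mitochondrial dienoyl-CoA reductase, and Decr2, the peroxisomal one, differed by -0.14 ± 0.14 and 0.13 ± 0.15 in DN against NC, and neither was called in any comparison.

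**Figure D2:**
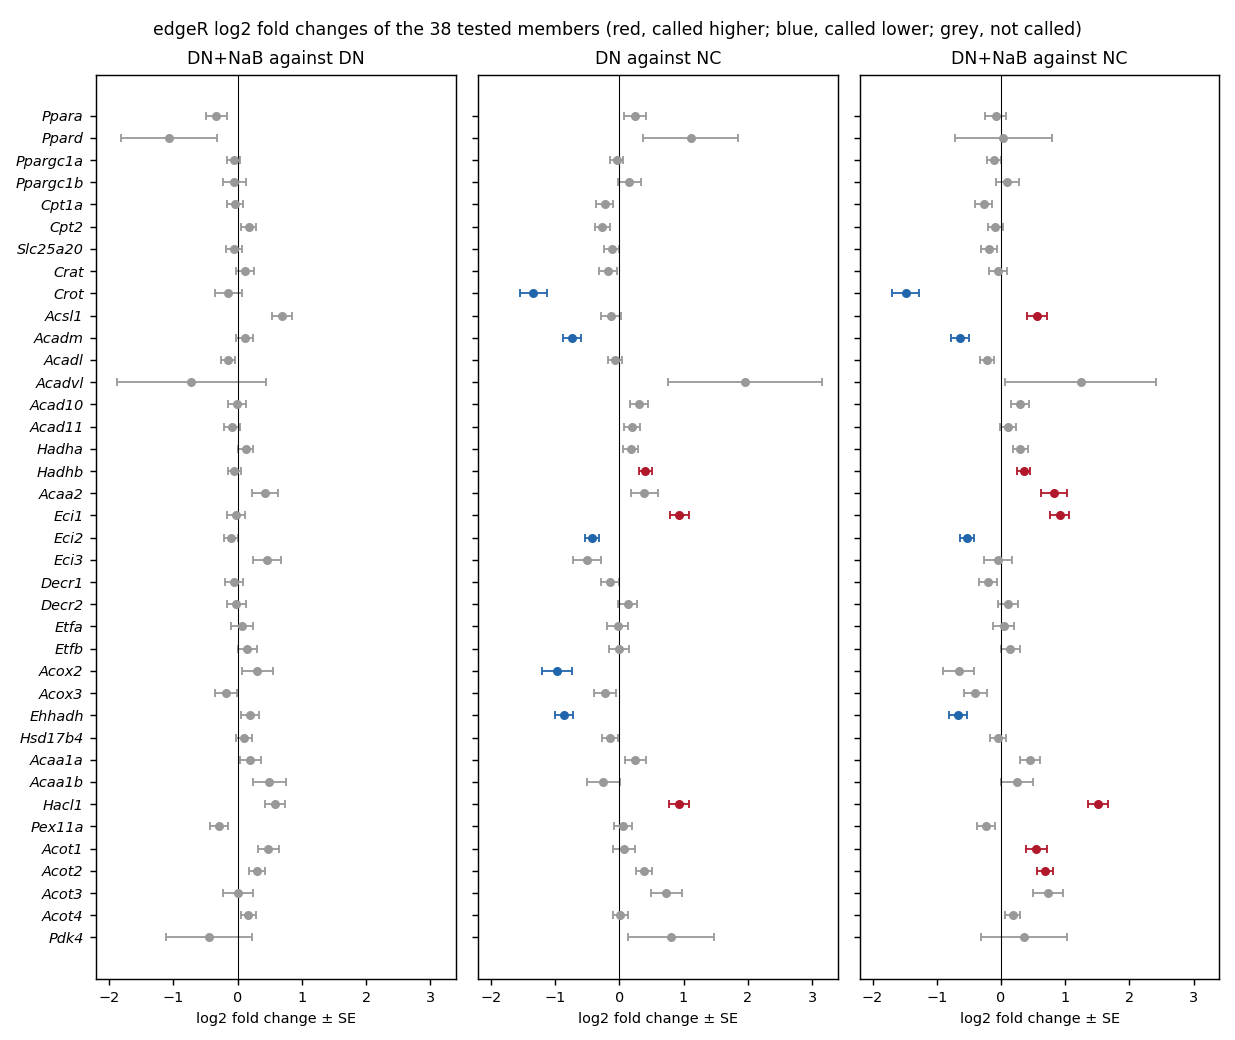
Log2 fold change (horizontal axis, point) with its standard error (whisker) of the 38 tested members, ordered by role from the top, in DN+NaB against DN (left), DN against NC (middle) and DN+NaB against NC (right). Red marks members called higher and blue those called lower at an adjusted p under 0.05; there are 0, 8 and 11 coloured points in the 3 panels, and the widest whiskers are those of Acadvl, Ppard and Pdk4.

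Of the 8 members of peroxisomal oxidation, 1 rose and 2 fell in DN against NC, and 1 rose and 1 fell in DN+NaB against NC. These calls make 37.5% and 25% of the 8, beside 8.23% and 15.6% of all genes. Ehhadh, the L-bifunctional protein and a classical PPAR-alpha target, had 518, 409, 414 and 325 CPM in DN+NaB libraries, 372, 357, 389.5 and 338 in DN libraries and 711, 559.9, 603 and 775 in NC libraries. All 8 values of the diseased groups lay below all NC values. It fell by 0.86 ± 0.14 in DN (SE, adjusted p = 0.00181) and by 0.67 ± 0.14 in DN+NaB (adjusted p = 0.00599), both against NC on the log2 scale. Hsd17b4, the D-bifunctional protein that does the same reactions on branched substrates, averaged 204 ± 26.2 CPM in DN+NaB, 190.5 ± 24.9 in DN and 211 ± 12.3 in NC (mean ± SD, n = 4 each), and was not called in any comparison.

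Acox2, the oxidase of branched chains and bile acid precursors, had 138, 111, 92.5 and 69.4 CPM in DN+NaB libraries, 74.8, 86.5, 120.5 and 50.4 in DN libraries and 153, 161, 162 and 174 in NC libraries. No DN or DN+NaB value reached the NC range, and replicate 4 was lowest in each diseased group. It fell by 0.97 ± 0.24 in DN against NC (SE, adjusted p = 0.0226), and without DN replicate 1 the difference was -0.92 (adjusted p = 0.0594). Against NC, DN+NaB differed by -0.66 ± 0.24 (SE, adjusted p = 0.0761), and it passed the test without DN replicate 3 (-0.66, adjusted p = 0.0346), DN replicate 4 (-0.68, adjusted p = 0.0188) or DN+NaB replicate 1 (-0.83, adjusted p = 0.0362). It also passed with library size only, a filter of at least 1 CPM in 4 libraries, only the 2 groups compared, or DESeq2 (adjusted p = 0.0275, 0.0459, 0.0203 and 0.0295). Acox3, the oxidase of pristanoyl-CoA, differed by -0.22 ± 0.17 (SE, adjusted p = 0.516) in DN and by -0.40 ± 0.17 (SE, adjusted p = 0.139) in DN+NaB, both against NC; without DN replicate 4 the second was -0.41 (adjusted p = 0.0255), and it also passed with library size only or only the 2 groups compared (adjusted p = 0.0390 and 0.0160).

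Hacl1, the hydroxyacyl-CoA lyase that splits off a carbon unit in peroxisomal alpha-oxidation of phytanic acid, had the largest called rise of the set. It had 167, 170.0, 142 and 141 CPM in DN+NaB libraries, 103, 109, 131 and 71.3 in DN libraries and 51.4, 51.9, 53.9 and 59.9 in NC libraries. The 3 groups did not overlap, with DN between DN+NaB and NC. It rose by 0.93 ± 0.15 (SE, adjusted p = 0.00161) in DN and by 1.51 ± 0.15 (SE, adjusted p = 2.5e-05) in DN+NaB, both against NC, which is 1.91-fold and 2.86-fold. DN+NaB differed from DN by 0.58 ± 0.15 (SE, adjusted p = 0.183). Of its 75-base stretches, 25.6% also occur in Gm49387, and how the authors' counting treated these is not given.

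Acaa1a and Acaa1b, the peroxisomal thiolases, are near-copies: 24.4% of the 75-base stretches of Acaa1b occur in Acaa1a, so the split of their reads is uncertain. Acaa1a had 93.6, 93.4, 94.1 and 89.2 CPM in DN+NaB libraries, 76.3, 93.7, 99.7 and 53.0 in DN libraries and 66.3, 69.8, 75.9 and 59.2 in NC libraries. All DN+NaB values lay above all NC values, and DN replicate 4 was the lowest library. It differed by 0.25 ± 0.16 (SE, adjusted p = 0.394) in DN and by 0.45 ± 0.16 (SE, adjusted p = 0.0707) in DN+NaB, both against NC. Without DN replicate 4 it passed in both, at 0.39 (adjusted p = 0.0320) and 0.43 (adjusted p = 0.00725), and without DN replicate 3 it passed in DN+NaB at 0.45 (adjusted p = 0.0447). The DN+NaB difference also passed with only the 2 groups compared or DESeq2 (adjusted p = 0.00460 and 0.0478). The sum of both thiolases was 293 ± 44.8 CPM in DN+NaB, 223 ± 74.3 in DN and 236 ± 23.7 in NC (mean ± SD, n = 4 each). Pex11a, which elongates peroxisomes before they divide, averaged 36.6 ± 1.93, 44.9 ± 9.19 and 43.2 ± 5.05 CPM in DN+NaB, DN and NC, and was not called in any comparison.

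The acyl-CoA thioesterases Acot1 (cytosol), Acot2 (mitochondria), Acot3 and Acot4 (peroxisomes) release free fatty acids from acyl-CoA and lie together on chromosome 12. Their likeness is shown because it limits how reads can be told apart: the longest coding stretch identical in Acot1 and Acot2 was 273 bases. Its first 90 bases are printed from GENCODE M21 transcripts (GRCm38, plus strand) beside the best ungapped match in Acot3 and Acot4, with capitals where a base differs from Acot1.
Acot1, chr12:84017006-84017095: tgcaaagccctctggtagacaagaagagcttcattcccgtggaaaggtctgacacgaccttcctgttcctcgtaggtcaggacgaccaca
Acot2, chr12:83992728-83992817: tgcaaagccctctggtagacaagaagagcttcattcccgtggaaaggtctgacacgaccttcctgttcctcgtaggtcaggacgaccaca
Acot3, chr12:84058653-84058742: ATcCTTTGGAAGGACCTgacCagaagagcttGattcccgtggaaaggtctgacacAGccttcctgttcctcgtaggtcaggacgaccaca
Acot4, chr12:84043423-84043512: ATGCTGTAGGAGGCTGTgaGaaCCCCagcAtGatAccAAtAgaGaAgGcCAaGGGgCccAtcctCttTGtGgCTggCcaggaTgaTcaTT
Acot2 is identical to Acot1 over this window, Acot3 differs at 20 bases and Acot4 at 49. Acot2 had 68.3, 62.6, 52.7 and 51.3 CPM in DN+NaB libraries, 46.6, 45.8, 57.0 and 42.0 in DN libraries and 37.7, 37.4, 31.7 and 39.3 in NC libraries. All values of both diseased groups lay above all NC values. It rose by 0.68 ± 0.13 (SE, adjusted p = 0.00250) in DN+NaB against NC and differed by 0.39 ± 0.13 (SE, adjusted p = 0.0785) in DN against NC, where it passed without DN replicate 4 (0.42, adjusted p = 0.0358) or with DESeq2 (0.39, adjusted p = 0.0367).

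Acot1 had 175, 166, 131 and 120.0 CPM in DN+NaB libraries, 96.5, 110.4, 129 and 88.6 in DN libraries and 84.6, 108, 85.5 and 126 in NC libraries. DN+NaB replicates 1 and 2 were highest, while DN+NaB replicate 4 lay below NC replicate 4. It rose by 0.55 ± 0.17 (SE, adjusted p = 0.0371) in DN+NaB against NC, a call lost without NC replicates 1, 2 or 3 (adjusted p = 0.108, 0.0578 and 0.101) or DN+NaB replicates 1 or 2 (0.101 and 0.105), and with library size only (0.0874). The sum of Acot1 and Acot2, in which the split of shared reads between them cancels, was 207 ± 34.5 CPM in DN+NaB, 154 ± 23.9 in DN and 138 ± 22.1 in NC. Acot3 had 40.5, 46.3, 42.9 and 36.8 CPM in DN+NaB libraries, 61.1, 41.7, 41.5 and 21.9 in DN libraries and 24.4, 25.6, 19.2 and 30.8 in NC libraries. DN+NaB lay wholly above NC, and DN replicate 4 fell within the NC range. It differed by 0.73 ± 0.24 (SE, adjusted p = 0.0783) in DN and by 0.73 ± 0.24 (SE, adjusted p = 0.0516) in DN+NaB, both against NC. Without DN replicate 4 it passed in both (0.93, adjusted p = 0.00396 and 0.72, adjusted p = 0.00677), as it did in DN+NaB without DN replicate 1 (0.74, adjusted p = 0.0247). DESeq2 also called both (adjusted p = 0.0251 in DN and 0.0167 in DN+NaB), and the second passed with only the 2 groups compared (0.00355). Acot4 differed by 0.017 ± 0.12 (SE, adjusted p = 0.961) in DN and by 0.18 ± 0.12 (SE, adjusted p = 0.325) in DN+NaB, both against NC.

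**Figure D3:**
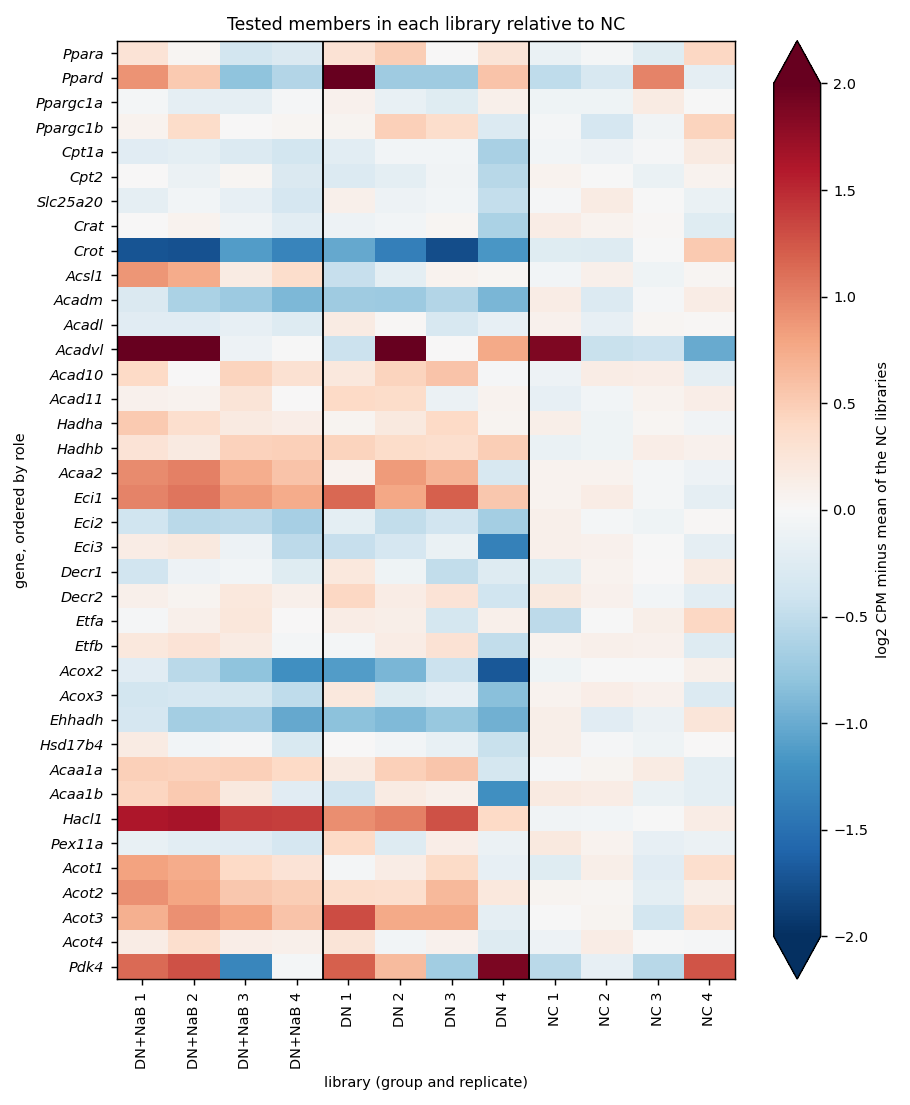
Log2 CPM of each tested member minus its mean over the 4 NC libraries (colour scale, limited to 2 on either side of 0), with genes ordered by role down the page and the DN+NaB, DN and NC libraries from left to right. Crot, Acadm and Ehhadh are blue and Eci1 and Hacl1 red in all 8 diseased libraries; DN replicate 4 and DN+NaB replicate 4 hold the lowest value of their group for 24 and 25 members.

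Replicate 4 was the lowest library for most members in each diseased group. DN replicate 4 had the lowest CPM of the 4 DN libraries for 24 of the 38 members, against 33.4% of all tested genes, and DN+NaB replicate 4 the lowest of its group for 25, against 26.1% of all genes. The median coefficient of variation over members was 10.2% in DN+NaB, 18.3% in DN and 10.6% in NC.

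Of the targets that switch fuel use, Pdk4 varied widely and Angptl4 had too few counts to test. Pdk4, the kinase that blocks pyruvate dehydrogenase when fat is burned, had 2828, 3186, 537 and 1480 counts in DN+NaB libraries, 3199, 1926, 888 and 4980 in DN libraries and 983, 1266, 984 and 3781 in NC libraries. Values differed by several fold inside each group and overlapped between groups, and its log2 fold change was 0.80 ± 0.67 (SE, adjusted p = 0.552) in DN against NC and -0.44 ± 0.67 (SE, adjusted p = 0.848) in DN+NaB against DN. Angptl4, a secreted inhibitor of lipoprotein lipase, had 8, 0, 0 and 3 counts in DN+NaB libraries, 4, 4, 0 and 2 in DN libraries and 6, 0, 147 and 6 in NC libraries. NC replicate 3 alone exceeded 8 counts, and the gene was not tested. Ppard, the receptor related to PPAR-alpha, had 19, 15, 6 and 8 counts in DN+NaB libraries, 75, 6, 7 and 16 in DN libraries and 8, 9, 23 and 11 in NC libraries, with DN replicate 1 the highest, and differed by 1.11 ± 0.74 (SE, adjusted p = 0.426) in DN against NC. None of the 75-base stretches of Ppard or Angptl4 occurs in another gene of GENCODE M21. Why these 2 genes have so few and such uneven counts was not tested, and with counter, strand setting and gene models not given, their counts are uncertain as measures of expression.

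**Figure D4:**
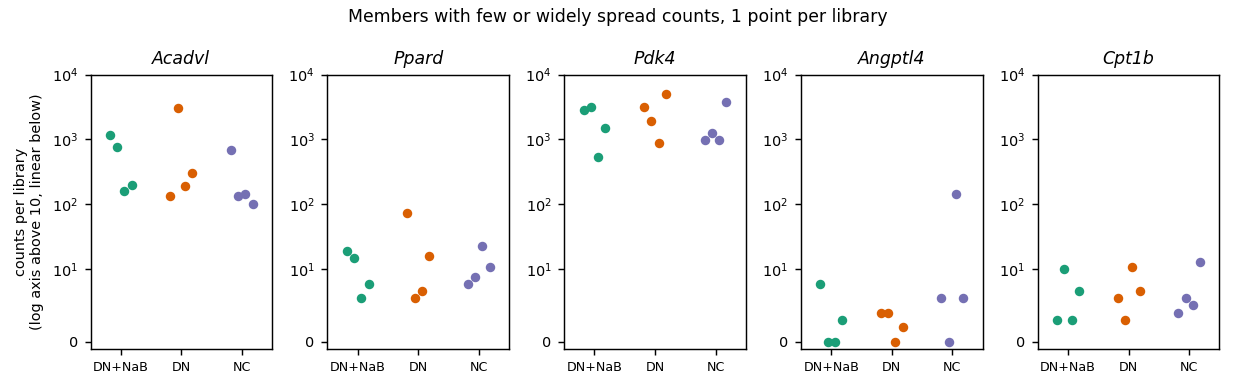
Counts per library (vertical axis, logarithmic above 10 and linear below) of the 5 members with few or widely spread counts, with 1 point per library and the DN+NaB, DN and NC groups from left to right. Acadvl ran from 103 to 3015 counts and Pdk4 from 537 to 4980, while Ppard stayed at 6 to 75, Cpt1b at 3 to 13 and Angptl4 at 0 to 8 except for 147 in NC replicate 3.

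Other genes of the pathway were read from 4 lists. In DN+NaB against DN, 1726 of all 17530 genes tested had an unadjusted p under 0.05 by edgeR. Of 24 regulators of fatty acid oxidation, 23 were tested; 1 rose and 3 fell in DN against NC, 0 were called by edgeR in DN+NaB against DN (2 at an unadjusted p under 0.05), and 1 rose and 4 fell in DN+NaB against NC. The called genes make 17.4% of those tested in DN against NC and 21.7% in DN+NaB against NC, beside 8.23% and 15.6% of all genes. Rxrg, a retinoid X receptor that can partner PPAR-alpha, averaged 2.48 ± 0.931 CPM in DN+NaB, 1.27 ± 0.274 in DN and 0.179 ± 0.0942 in NC (mean ± SD, n = 4 each), and rose by 2.81 ± 0.40 (SE, adjusted p = 0.000539) in DN. Rxra, another retinoid X receptor of the list, was far more abundant, at 312 ± 58.6 CPM in DN and 257 ± 18.9 in NC. It was not called in DN against NC (0.28 ± 0.12 SE, adjusted p = 0.209). Lpin1, a phosphatidate phosphatase that also coactivates PPAR-alpha in mouse liver, averaged 98.6 ± 40.7, 97.9 ± 13.3 and 210.1 ± 3.69 CPM in DN+NaB, DN and NC, and differed by -1.10 ± 0.22 (SE, adjusted p = 0.00788) in DN against NC. Acaca, a carboxylase whose product malonyl-CoA inhibits Cpt1a, differed by -0.50 ± 0.12 (SE, adjusted p = 0.0193) in DN against NC, though the groups overlap. Its relative Acacb, also in the list, averaged 131 ± 9.05 CPM in DN and 141 ± 26.9 in NC. Acacb was not called there (-0.11 ± 0.13 SE, adjusted p = 0.706). Pparg, the fat-cell receptor of the family, differed by -0.93 ± 0.26 (SE, adjusted p = 0.0411). The median of the list was -0.084 in DN against NC, against 0.013 over all genes.

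Of 25 genes listed as other mitochondrial fatty acid oxidation genes, some of whose products act elsewhere (Acsl3 and Nudt19 below), 1 rose and 6 fell in DN against NC, 0 were called by edgeR in DN+NaB against DN (3 at an unadjusted p under 0.05), and 1 rose and 7 fell in DN+NaB against NC. The called genes make 28% of those tested in DN against NC and 32% in DN+NaB against NC, beside 8.23% and 15.6% of all genes. Besides Acad12, Acsl3, an acyl-CoA synthetase of lipid droplets, averaged 7.81 ± 0.518 CPM in DN+NaB, 8.10 ± 0.225 in DN and 13.4 ± 1.69 in NC, and its log2 fold change in DN against NC was -0.73 ± 0.13 (SE, adjusted p = 0.00231). Acad9, which also helps to assemble respiratory complex I, differed by -0.62 ± 0.12 (SE, adjusted p = 0.00381) and the pyruvate dehydrogenase kinase gene Pdk3 by -0.77 ± 0.17 (SE, adjusted p = 0.0126). Nudt19, a hydrolase of coenzyme A abundant in mouse kidney peroxisomes, averaged 229 ± 55.0 CPM in DN+NaB, 442 ± 182 in DN and 906 ± 156 in NC, and differed by -1.98 ± 0.26 (SE, adjusted p = 0.000261) in DN+NaB against NC. The list's median was -0.11 in DN and -0.22 in DN+NaB, both against NC, beside 0.013 and -0.0093 over all genes.

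Of 35 other peroxisomal genes, 34 were tested; 2 rose and 4 fell in DN against NC, 0 were called by edgeR in DN+NaB against DN (0 at an unadjusted p under 0.05), and 3 rose and 7 fell in DN+NaB against NC. The called genes make 17.6% of those tested in DN against NC and 29.4% in DN+NaB against NC, beside 8.23% and 15.6% of all genes. Agps, which makes the ether bond of plasmalogens, averaged 43.6 ± 6.11 CPM in DN+NaB, 55.2 ± 15.1 in DN and 155 ± 56.7 in NC, and its log2 fold change in DN against NC was -1.49 ± 0.25 (SE, adjusted p = 0.00216). Abcd3, a peroxisomal importer of branched acyl-CoA, averaged 125 ± 14.2, 127 ± 15.4 and 194 ± 21.7 CPM in the same order, with a difference of -0.62 ± 0.12 (SE, adjusted p = 0.00581) in DN against NC. Hao2, a hydroxyacid oxidase, rose to 450.2 ± 124 CPM in DN, against 181 ± 38.4 in NC (log2 fold change 1.31 ± 0.24 SE, adjusted p = 0.00384), and Acot12, an acetyl-CoA thioesterase, fell to 82.8 ± 12.4 CPM, against 137 ± 18.3 in NC (-0.73 ± 0.13 SE, adjusted p = 0.00342). The list's median was -0.11 in DN against NC, against 0.013 over all genes.

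Of 33 other PPAR-alpha targets, 30 were tested; 4 rose and 4 fell in DN against NC, 0 were called by edgeR in DN+NaB against DN (2 at an unadjusted p under 0.05), and 4 rose and 6 fell in DN+NaB against NC. The called genes make 26.7% of those tested in DN against NC and 33.3% in DN+NaB against NC, beside 8.23% and 15.6% of all genes. Cyp4a14, a fatty acid omega-hydroxylase, averaged 699 ± 193, 819 ± 207 and 174 ± 60.1 CPM in DN+NaB, DN and NC, with a log2 fold change of 2.24 ± 0.27 (SE, adjusted p = 0.000203) in DN against NC; Cyp4a genes are near-copies, so its value is uncertain. Lpl, the lipase that frees fatty acids from lipoproteins, averaged 99.7 ± 18.9 CPM in DN+NaB, 104 ± 14.2 in DN and 358 ± 67.6 in NC (DN against NC -1.79 ± 0.17 SE, adjusted p = 1.71e-05), and Cd36, a fatty acid receptor, differed by -2.33 ± 0.30 (SE, adjusted p = 0.000368). Me1, the malic enzyme that supplies NADPH for lipid synthesis, differed by -1.11 ± 0.13 (SE, adjusted p = 9.31e-05). Acsm3, an acyl-CoA synthetase of medium chains, averaged 10.0 ± 3.61 CPM in DN+NaB, 15.8 ± 3.79 in DN and 421 ± 227 in NC (DN against NC -4.74 ± 0.41 SE, adjusted p = 2.66e-05), and it is also 1 of the 10 straight-tubule markers above. The 8 adipocyte markers summed to 4.26 to 9.31 CPM in DN+NaB, 5.34 to 14.6 in DN and 16.8 to 19.6 in NC. Of these 8, 2 are in this list, and Fabp4, with the highest counts of the 8 in every library, dominates the sum. Adipoq had 2 to 6 counts in DN+NaB libraries, 0 to 40 in DN and 1 to 21 in NC. The part of fat cells in the fall of Lpl and Cd36 was not tested. The list's median was 0.021 in DN against NC, against 0.013 over all genes.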

How the data were processed

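The authors deposited 1 table of raw counts by gene symbol for the 12 libraries, which the labels place in renal cortex; RNA was taken with Trizol and libraries made by Illumina protocols. The submitters' processing notes list HISAT2 2.0.4, a read aligner. Counter, strandedness, gene models and genome build were not given in the sources used here, so overlapping genes and near-identical copies are uncertain. The table has no row that names no gene. Column names matched the sample titles.

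Genes were filtered with filterByExpr, which left 17530. Libraries were scaled by TMM, and all 12 entered 1 quasi-likelihood fit in edgeR 4.0.16 (R 4.3.3) with a term for group alone, estimated robustly. A gene was called at an adjusted p under 0.05 (Benjamini-Hochberg, two-sided, within a comparison). Fold changes and their standard errors are on the log2 scale, and CPM uses TMM factors. The fit was also run on simulated counts, drawn independently for each gene and library. These hold no shift shared by many genes of a library, so they cannot show how the calls fare under such a shift. No libraries agreed within sampling noise (smallest chi-square per degree of freedom 23.6). Alternatives were RLE factors, library size only, 2 other filters, only the 2 groups compared, DESeq2 1.42.0, the replicate number as a block, and leaving out each library.

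Shared 75-base stretches were counted on both strands in GENCODE M21 transcripts. Promoters come from RefSeq, GRCm38.p6. The members and lists were chosen with earlier results of these data known. Named were all called members, Ppara and Ppargc1a, and up to 4 called genes of smallest p per list and comparison. The copies, the tissue genes, the marker genes, Rxra and Acacb were named after their values were seen.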

Additional observations from a re-analysis of the deposited data

Results flagged for a closer look

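Of 114 sets of 4 CPM values (38 members in 3 groups), 9 had a library far from the other 3 of its group by Dixon's test at the 95% level; chance gives this in about 1 of 20 sets. For Ppard it was NC replicate 3, with 0.346 CPM against 0.122 to 0.153 in the other NC libraries. For Ppard it was DN replicate 1, with 1.18 CPM against 0.106 to 0.258 in the other DN libraries. For Ppargc1b it was DN+NaB replicate 2, with 82.5 CPM against 64.6 to 67.7 in the other DN+NaB libraries. For Acadvl it was NC replicate 1, with 10.5 CPM against 1.43 to 2.15 in the other NC libraries. For Acadvl it was DN replicate 2, with 53.1 CPM against 2.13 to 4.86 in the other DN libraries. For Etfa it was DN replicate 3, with 47.2 CPM against 64.8 to 66.8 in the other DN libraries. For Etfb it was NC replicate 4, with 253 CPM against 316 to 323 in the other NC libraries. For Acaa1a it was DN+NaB replicate 4, with 89.2 CPM against 93.4 to 94.1 in the other DN+NaB libraries. For Pdk4 it was NC replicate 4, with 52.4 CPM against 14.8 to 19.6 in the other NC libraries. Acadvl and Ppard each stood out in both NC and DN, in different replicate numbers. None of the 12 called members is among the 9.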

How the results depend on the processing

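Of 2163 values (1 per member, comparison and alternative), 2101 kept their side of the threshold, 32 passed that had not and 30 no longer passed; no called value changed direction, and 75 values not called under either setting changed sign. The counts of members that rose in DN against NC were 5 with DESeq2 and 3 with the replicate block. In DN+NaB against DN, DESeq2 called 2 higher. In DN+NaB against NC, library size only gave 4 higher and 7 lower, and only the 2 groups compared 7 lower. Leaving out 1 library, the members called ran from 2 to 6 higher and 4 to 5 lower in DN against NC, from 0 to 0 in DN+NaB against DN, and from 4 to 9 higher and 4 to 7 lower in DN+NaB against NC. The causes were not tested. Same-numbered deviations from the group means correlated at -0.25 to 0.27 between groups, and at 0.20 to 0.27 for replicate 4. Differently numbered libraries were not compared, so these values cannot settle whether libraries were paired. With the replicate block, 6 members fell in DN against NC, 0 were called in DN+NaB against DN, and 7 rose and 4 fell in DN+NaB against NC; Eci3 (-0.56, adjusted p = 0.0406) and, in DN+NaB against NC, Acaa1a (0.46, adjusted p = 0.0303) were gained and Acot1 (0.55, adjusted p = 0.0633) lost. Over all genes, in DN against NC 669 rose, against 1031 with DESeq2. In DN+NaB against DN 2 rose and 2 fell, against 0 to 84 and 0 to 173 over the alternatives, the highest with DESeq2; without DN replicate 3 these were 30 and 37. In DN+NaB against NC 1161 rose and 1568 fell, against 1783 higher with only the 2 groups compared and 1043 lower without DN+NaB replicate 2. Cpt1b, Angptl4 and Ppard had too few counts for a firm statement, for reasons not tested.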
